A study of Mus musculus with 16 samples.

Results

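The 9 genes described here encode subunits and regulators of NF-κB. They were taken by gene name from a table of 55414 mouse genes, and all 9 were found there once. *Nfkb1*, *Nfkb2*, *Rel* and *Relb* encode subunits of the transcription factor. *Nfkbia*, *Nfkbie* and *Nfkbiz* encode IκB proteins, and *Tnfaip3* and *Birc3* encode enzymes that attach or remove ubiquitin in the same pathway. All 9 had enough reads for testing in every comparison, with 411 counts or more in each library.

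NF-κB is a family of dimeric transcription factors that inflammatory cytokines, microbial products and several growth signals activate. In resting cells IκB proteins hold the dimers in the cytoplasm, and a kinase complex releases them by marking IκB for destruction. The freed dimers switch on adhesion molecules and chemokines in endothelium, and also their own inhibitors, so that IκBα and A20 end the response in a feedback loop.

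The study used mouse lung endothelial cells (MLECs) isolated from *Rosa26*-*Cre* ERT2;*Eng* fl/fl mice that also carried the Immorto transgene, which keeps cells dividing in culture. Cells of 4 independent isolations were exposed to 4-OH-tamoxifen, which activates the Cre recombinase and removes *Eng* (KO cells), or to vehicle (Ctrl cells). *Eng* encodes endoglin, a co-receptor for bone morphogenetic protein 9 (BMP9). After overnight serum starvation, cells received ligand at 0.2 ng/ml of the BMP9 growth factor domain, or PBS, for 90 min, and polyadenylated RNA was sequenced.

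Ctrl cells received PBS (Ctrl PBS) or sENG(M):BMP9, and KO cells received PBS (KO PBS) or pro:BMP9. These 4 groups had 4 libraries each, with 1 library of every group from each isolation. In sENG(M):BMP9 the ligand is in complex with soluble endoglin, and in pro:BMP9 it is in complex with its own prodomain. The soluble endoglin was given in large excess over the ligand. No group received soluble endoglin alone, so ligand effects in Ctrl cells cannot be told apart from effects of that excess. All cells, Ctrl cells included, carried the floxed *Eng* alleles, the tamoxifen-activated Cre under the ubiquitous *Rosa26* locus and the Immorto transgene, and were grown with interferon-γ and the kinase inhibitor SB431542 before the experiment. Loss of *Eng* cannot be told apart from exposure to 4-OH-tamoxifen. In ligand-treated cells the genotype cannot be told apart from the form of the ligand or from the excess soluble endoglin. Each isolation is an MLEC line of its own, and the sources used here do not give the number of mice behind a line.

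Library totals lay between 14869115 and 17242117 counts, and 15693 genes had enough reads for testing. *Eng* lay between 375 and 594 CPM (counts scaled to a common library size) in Ctrl PBS and between 40.1 and 60.0 CPM in KO PBS. With ligand it lay between 525 and 776 CPM in Ctrl cells and between 115 and 130 CPM in KO cells, 2.35-fold above KO PBS (adjusted p = 2.80e-07). *Smad6*, a BMP-induced inhibitor of SMAD signalling, rose 11.0-fold in Ctrl cells given sENG(M):BMP9 and 9.25-fold in KO cells given pro:BMP9, and *Id1*, a classical BMP target, rose 5.69-fold and 5.87-fold. All 10 pan-endothelial markers examined were detected in every group, with a summed level of 3450 to 7580 CPM. The summed level was 68.6 to 637 CPM for 5 fibroblast markers, 30.8 to 223 CPM for 6 mural markers, 37.9 to 54.3 CPM for 8 leukocyte markers and 49.4 to 180 CPM for 5 epithelial markers (*Sftpc* was at or under 3 counts in every library). Of 27 such markers tested, *Pecam1* and *Kdr* were higher with ligand in Ctrl cells, *Kdr* was higher with ligand in KO cells, and *Dcn* was lower in KO than in Ctrl cells in PBS. *Dcn* and *Pdgfrb* were lower in KO than in Ctrl cells with ligand. Of all tested genes, 9.69% differed with ligand in Ctrl cells and 5.59% in KO cells, at an adjusted p under 0.05. Between KO and Ctrl cells 0.0191% differed in PBS and 0.255% with ligand. In bulk RNA, fewer cells of a type cannot be told apart from less RNA per cell. The part of these markers in the values below was not tested.

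Sites that match the NF-κB consensus lie close to the start of 5 of the 9 genes, and they are shown because several of these genes are known targets of NF-κB itself. RefSeq promoter sequences (annotated on GRCm38.p6) covered 6 members with 9 start sites, and each sequence was located on GRCm39 by an exact match. *Nfkbiz*, *Nfkb1* and *Relb* had no entry. The 250 bases before each start were searched on both strands for the 10-base consensus. Of the 9 windows, 7 held a match. *Birc3* had no match in its window, which says only that these letters are absent there. Across all 32851 RefSeq promoters, 3.9% held the consensus in a window of the same length. The sites before the start nearest to the deposited gene start are printed 5′ to 3′ on the strand of the gene, 30 bases each, with the consensus in capitals. Where 2 matches overlap, they are printed as 1 run.
Nfkbia: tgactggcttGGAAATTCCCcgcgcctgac
Nfkbie: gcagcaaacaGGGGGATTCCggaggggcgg
Tnfaip3 distal site: gactcacgcgGGGACACCCCggggcgggac
Tnfaip3 proximal site: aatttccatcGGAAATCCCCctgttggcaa
Nfkb2 distal site: gatcgtcacGGGAATTCCCCccctcggggg
Nfkb2 proximal site: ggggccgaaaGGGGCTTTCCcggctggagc
Rel: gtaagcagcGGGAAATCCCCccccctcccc

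On GRCm39, the *Nfkbia* sequence is chr12:55539442-55539471 on the minus strand, and its site is 29 to 20 bases before the start. The *Nfkbie* sequence is chr17:45866510-45866539 on the plus strand, with the site 106 to 97 bases before the start. Neither site falls inside the annotated gene (GENCODE vM39). The *Tnfaip3* sequences are chr10:18891264-18891293 and chr10:18891151-18891180 on the minus strand. That RefSeq start lies 247 bases inside the deposited gene, so both sites are within it, the distal one in an intron and the proximal one in an exon annotated as 5′ untranslated. The *Nfkb2* sequences are chr19:46293128-46293157 and chr19:46293155-46293184 on the plus strand, and both sites fall in 5′ untranslated exon sequence. The *Rel* sequence is chr11:23721041-23721070 on the minus strand, and its site is in an annotated 5′ untranslated exon although it precedes the deposited gene start. GGCGCC and GTCTAGAC, both known as sequences that SMAD proteins bind, were searched in the same windows. GGCGCC was in no member window (9.59% of all promoters hold it). GTCTAGAC was in 1 *Tnfaip3* window, before a start 3694 bases inside the deposited gene (0.167% of all promoters hold it).

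The deposited table places the genes on 9 chromosomes. The subunit genes are *Nfkb1* (ENSMUSG00000028163, chr3:135290416-135397308, minus strand, 25 exons), *Nfkb2* (ENSMUSG00000025225, chr19:46292759-46300824, plus strand, 23 exons), *Rel* (ENSMUSG00000020275, chr11:23686847-23720970, minus strand, 10 exons) and *Relb* (ENSMUSG00000002983, chr7:19340142-19363363, minus strand, 12 exons). The IκB genes are *Nfkbia* (ENSMUSG00000021025, chr12:55536195-55539432, minus strand, 6 exons), *Nfkbie* (ENSMUSG00000023947, chr17:45866629-45874095, plus strand, 6 exons) and *Nfkbiz* (ENSMUSG00000035356, chr16:55631738-55659262, minus strand, 12 exons). *Tnfaip3* (ENSMUSG00000019850, chr10:18876658-18891405) has 9 exons on the minus strand, as has *Birc3* (ENSMUSG00000032000, chr9:7848700-7873187). Coordinates are on GRCm39, and exons are those of the canonical transcript in GENCODE vM39. In that annotation *Gm43430* overlaps *Nfkb1* on the same strand, and *Nfkbia*, *Tnfaip3*, *Nfkb1*, *Nfkb2* and *Birc3* have overlapping genes on the opposite strand. Whether strand was used in counting is not given in the sources used here, so reads shared with those partners cannot be separated.

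To compare levels between genes, counts were divided by gene length as RPKM (CPM per kilobase of gene). On that scale *Nfkbia*, which encodes IκBα, the inhibitor that NF-κB rapidly restores, had the highest level of the 9 genes in all 4 groups, at 284 ± 49.4 RPKM (SD, n = 4) in Ctrl PBS. *Nfkbiz*, which encodes the nuclear protein IκBζ, and *Tnfaip3*, which encodes the ubiquitin-editing enzyme A20, followed at 65.6 ± 11.0 and 59.1 ± 17 RPKM in Ctrl PBS. *Tnfaip3* stood above *Nfkbiz* in both ligand groups and below it in both PBS groups, but their ranges overlapped in all 4 groups.

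*Nfkb2*, which encodes the p100 precursor of p52, had the next level in every group, at 34.5 ± 2.82 RPKM in Ctrl PBS. *Relb*, which encodes the usual partner of p52, stood at 21.5 ± 3.45 RPKM, *Nfkbie*, which encodes the cytoplasmic inhibitor IκBε, at 20.1 ± 10.6 RPKM, and *Nfkb1*, which encodes the p105 precursor of p50, at 18.7 ± 0.640 RPKM. *Birc3*, which encodes the ubiquitin ligase cIAP2, had a mean of 15.8 ± 2.21 RPKM. In Ctrl PBS the ranges of neighbours from *Relb* to *Birc3* overlapped, so their order is not resolved. *Rel*, which encodes c-Rel, was last at 5.72 ± 1.26 RPKM. The *Rel* range lay below that of every other member in all 4 groups. The deposited length of *Nfkb1* is 12061 bases, the longest of the 9, and its RPKM depends on that value.

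The isolation a library came from set most of the spread for every member except *Nfkb1*. *Nfkbie* differed most, with an isolation mean of 90.7 CPM in isolation 2 and 30.1 CPM in isolation 4, a ratio of 3.01. *Tnfaip3* followed with a ratio of 1.77 between its highest and lowest isolation, then *Rel* (1.57), *Nfkbia* (1.47), *Nfkbiz* (1.45), *Relb* (1.37), *Birc3* (1.35), *Nfkb2* (1.22) and *Nfkb1* (1.10). For 5 members, *Nfkbia*, *Nfkbie*, *Nfkbiz*, *Tnfaip3* and *Rel*, every library of isolations 1 and 2 was above every library of isolations 3 and 4. For *Nfkbie*, for example, the lowest value of isolations 1 and 2 was 69.2 CPM and the highest of isolations 3 and 4 was 38.5 CPM. The libraries of *Nfkb1*, *Nfkb2*, *Relb* and *Birc3* did not separate in this way. The share of all tested genes that separate in this way is not given here.

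As a share of the variance in log2 expression, isolation took 98.2% for *Nfkbie*, 95.7% for *Nfkbia*, 91.3% for *Nfkbiz*, 89.5% for *Rel* and 88.1% for *Tnfaip3*. It took 76.0% for *Relb*, 61.1% for *Birc3*, 53.0% for *Nfkb2* and 43.3% for *Nfkb1*, where the median over all tested genes was 63.8%. The 4 groups took the largest share for *Birc3* (30.5%) and *Nfkb2* (27.6%) and the smallest for *Nfkbie* (1.05%) and *Nfkbia* (1.21%). The median group share over all tested genes was 8.79%. Summed fibroblast markers also differed between the libraries of 1 group, from 73.7 to 637 CPM in Ctrl PBS, and their part in the isolation differences was not tested. Over all 16 libraries *Nfkbia* ranged from 365 to 583 CPM, *Nfkbie* from 26.9 to 97.5 CPM, *Nfkbiz* from 250 to 404 CPM, *Nfkb1* from 212 to 252 CPM and *Relb* from 61.2 to 101 CPM. Since each isolation gave all 4 groups, the comparisons were made within isolations.

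**Figure D1:**
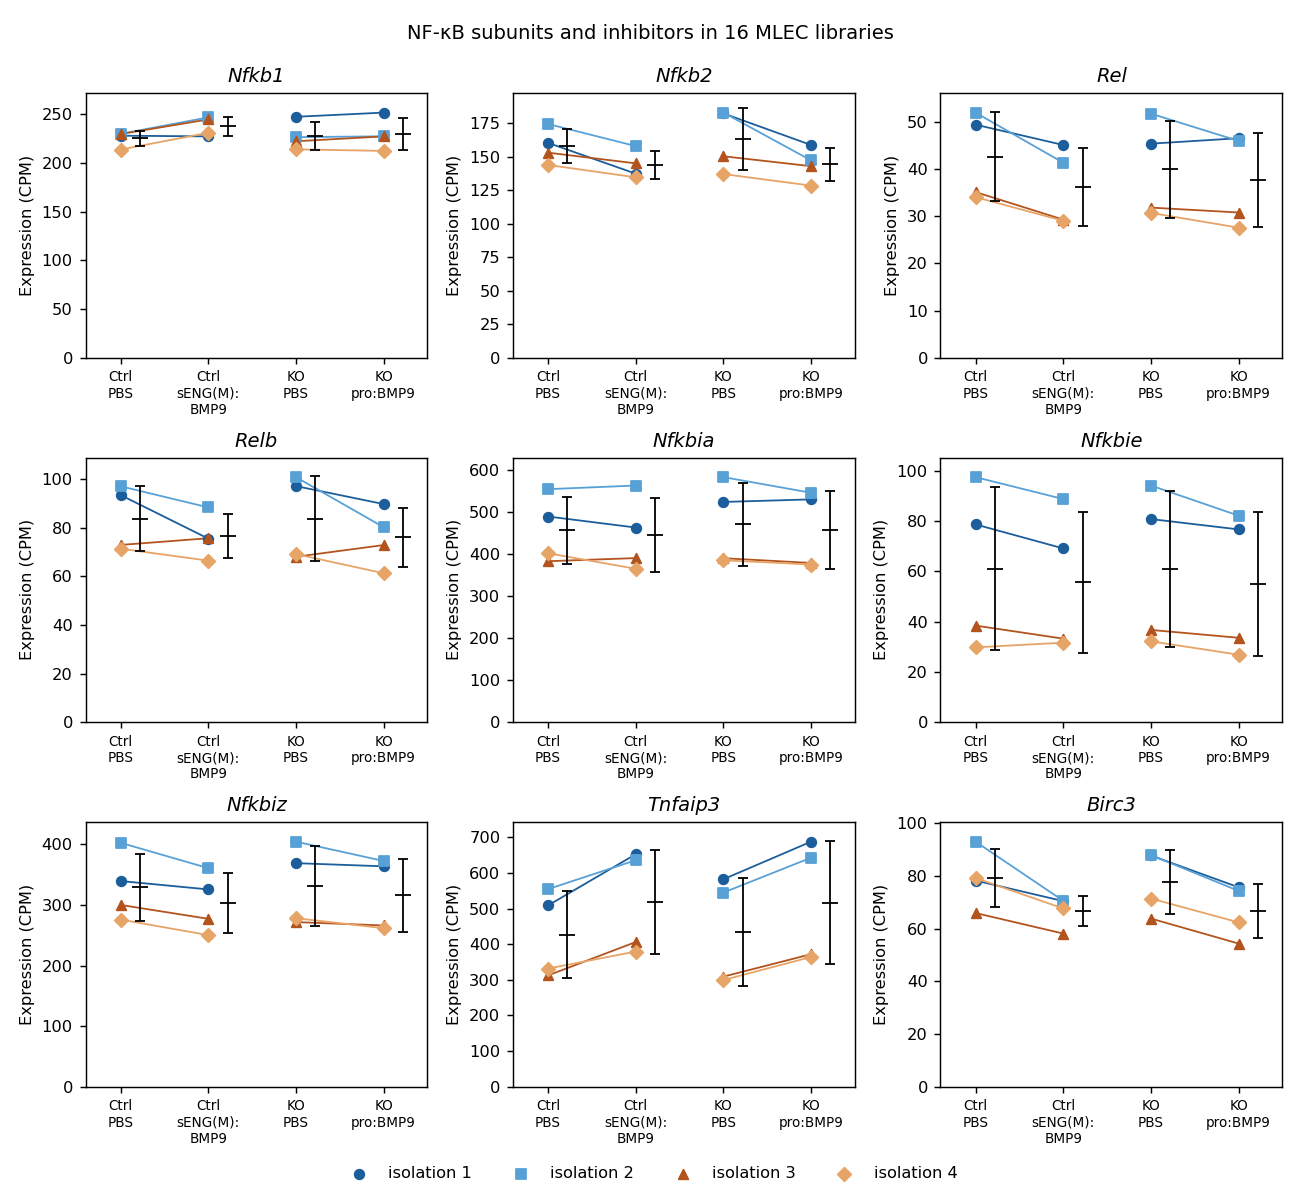
Expression in CPM (linear axis from 0) of the 9 genes in the 4 groups. Each symbol is 1 library, coloured by isolation, lines join the PBS and ligand libraries of the same isolation, and black bars give the mean ± SD of 4 libraries. *Tnfaip3* goes up along all 8 lines and *Birc3* goes down along all 8, while the blue isolations 1 and 2 lie above the brown isolations 3 and 4 for *Nfkbie*, with no overlap.

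With sENG(M):BMP9 in Ctrl cells, *Tnfaip3* rose by 21.5%, while *Rel* fell by 15.1% and *Birc3* fell by 15.4%. The other 6 members did not pass the test. Of all tested genes 9.69% passed in this comparison (5.86% higher and 3.83% lower), and of the 9 members 3 passed, 1 higher and 2 lower. The members were chosen with earlier results of these data known, so such counts are not an independent test of them. The test was the edgeR quasi-likelihood test on counts with isolation as a block, with p-values adjusted over all tested genes by the Benjamini-Hochberg method and a threshold of 0.05. The median log2 fold change was -0.12 over the members and -0.0051 over all tested genes.

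In Ctrl PBS, *Tnfaip3* measured 508.8, 554.5, 312.5 and 331.6 CPM in isolations 1 to 4. With sENG(M):BMP9 it measured 652.4, 635.6, 406.1 and 379.4 CPM. The ligand library was higher in each isolation, while the ranges of both groups overlapped because isolations 3 and 4 were lower throughout. The log2 fold change was 0.28 (SE 0.046, adjusted p = 0.000294), and in single isolations it lay between 0.19 and 0.38.

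*Rel* measured 49.46, 52.02, 35.16 and 34.08 CPM in Ctrl PBS. It measured 45.15, 41.39, 29.31 and 29.06 CPM with sENG(M):BMP9. The ligand library was the lower in all 4 isolations, by least in isolation 1 and by most in isolation 2, and the group ranges overlapped. The log2 fold change was -0.24 (SE 0.0536, adjusted p = 0.00584).

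*Birc3* measured 78.19, 92.94, 65.88 and 79.15 CPM in Ctrl PBS, and 70.40, 70.52, 58.09 and 67.60 CPM with sENG(M):BMP9. It was lower with ligand in all 4 isolations, with the largest step in isolation 2 (-0.40 on the log2 scale) and the smallest in isolation 1 (-0.15). The log2 fold change was -0.24 (SE 0.0533, adjusted p = 0.00472). Without isolation 2, only *Tnfaip3* of the 3 passed the threshold.

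Of the subunits that did not pass, *Nfkb2* was lower in 4 of 4 isolations (log2 fold change -0.13, adjusted p = 0.145). *Relb* had -0.12 (adjusted p = 0.349) with 3 of 4 isolations lower, and *Nfkb1* had 0.076 (adjusted p = 0.359) with 3 of 4 higher. Of the IκB genes, *Nfkbiz* had -0.12 (adjusted p = 0.0930) with 4 of 4 lower and *Nfkbie* had -0.12 (adjusted p = 0.230) with 3 of 4 lower. *Nfkbia* was even, higher in 2 isolations and lower in 2, with a log2 fold change of -0.042 and a 95% interval of -8.31% to 2.93% on the linear scale.

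With pro:BMP9 in KO cells, *Tnfaip3* again rose, by 19.4%, and *Birc3* fell by 14.2%. These were the 2 of 9 members that passed, against 5.59% of all tested genes (3.68% higher and 1.92% lower). The median log2 fold change was -0.084 over the members and 0.00042 over all genes. The comparison shares no library with that in Ctrl cells, but the cells come from the same 4 isolations.

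*Tnfaip3* measured 582.2, 544.9, 309.0 and 299.5 CPM in KO PBS in isolations 1 to 4, and 687.7, 642.7, 372.0 and 364.1 CPM with pro:BMP9. The step was close to even, from 0.24 to 0.28 on the log2 scale in the 4 isolations. The fitted log2 fold change was 0.26 (SE 0.046, adjusted p = 0.00123).

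*Birc3* measured 87.69, 87.84, 63.78 and 71.36 CPM in KO PBS and 75.63, 74.27, 54.30 and 62.33 CPM with pro:BMP9. It was lower with ligand in each isolation, by 0.20 to 0.24 on the log2 scale, with overlapping group ranges. The log2 fold change was -0.22 (SE 0.0535, adjusted p = 0.0154). Without isolation 2, or without isolation 3, *Birc3* no longer passed and *Tnfaip3* alone did.

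*Rel*, which had passed in Ctrl cells, changed in KO cells by -0.083 on the log2 scale (not past the threshold, adjusted p = 0.579) and was lower in 3 of 4 isolations. It measured 45.43, 51.80, 31.86 and 30.73 CPM in KO PBS and 46.58, 46.01, 30.82 and 27.60 CPM with pro:BMP9. The ligand library was the higher in isolation 1, the reverse of the other 3 isolations.

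The p100 gene *Nfkb2* measured 182.4, 183.0, 150.4 and 137.1 CPM in KO PBS and 158.8, 147.3, 143.0 and 128.5 CPM with pro:BMP9. All 4 isolations were lower with ligand, and the log2 fold change of -0.17 did not pass (adjusted p = 0.0731). *Nfkbie* was also lower in 4 of 4 isolations (-0.16, adjusted p = 0.116), as was *Nfkbiz* (-0.064, adjusted p = 0.583). *Relb* had -0.13 (adjusted p = 0.398), *Nfkbia* -0.039 (adjusted p = 0.801) and *Nfkb1* 0.013 (adjusted p = 0.965).

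Both counts depend on the comparison being made within isolations. Without the isolation in the model, 0 of 9 members passed in either ligand comparison, with 167 genes called of all tested in Ctrl cells and 91 in KO cells. With the isolation in the model, DESeq2 called *Tnfaip3*, *Rel* and *Birc3* in Ctrl cells and *Tnfaip3* and *Birc3* in KO cells.

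**Figure D2:**
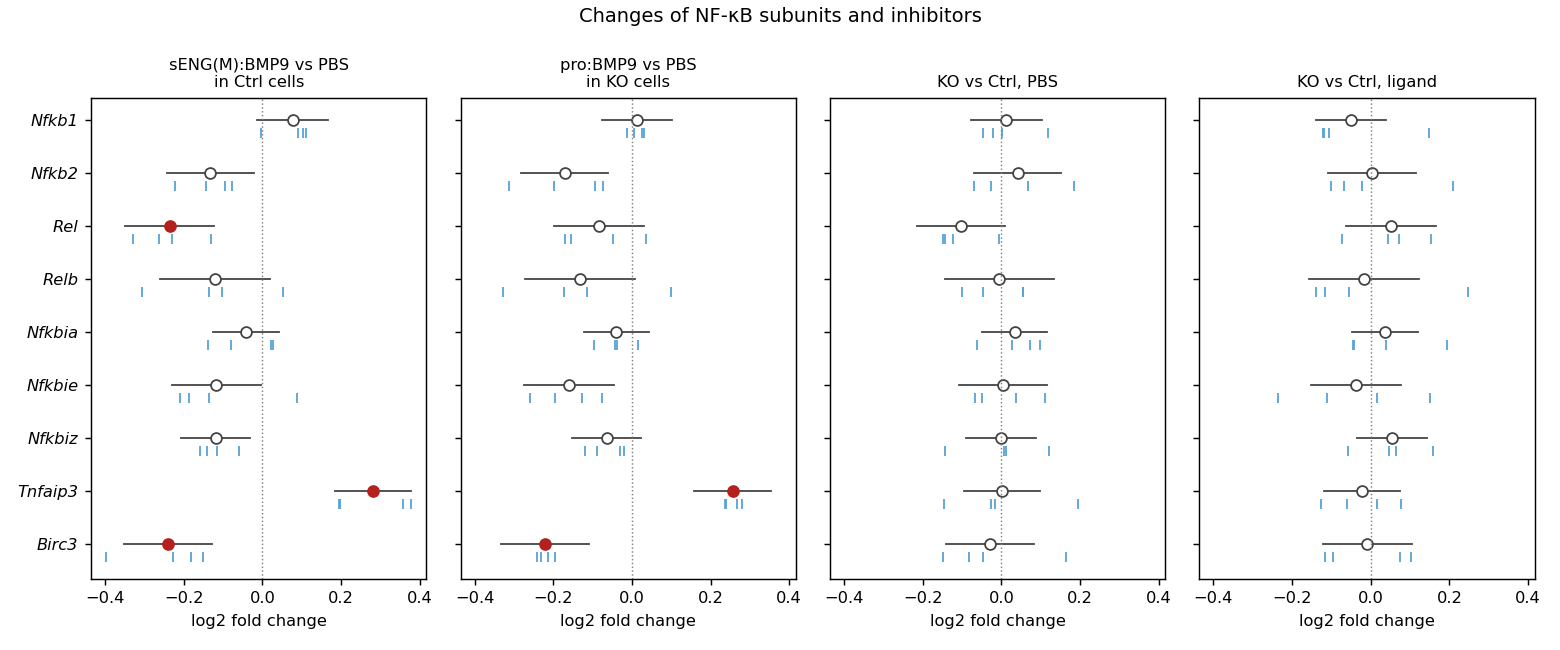
Log2 fold changes of the 9 genes in 4 comparisons. Circles are fitted values with 95% intervals, red where the adjusted p is under 0.05 and white elsewhere, and blue ticks are the 4 isolations. *Tnfaip3* stands at 0.28 and 0.26 in both ligand comparisons, *Birc3* at -0.24 and -0.22, and no member is red between KO and Ctrl cells.

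Loss of *Eng* without ligand left no member past the threshold. In PBS, 0.0191% of tested genes differed between KO and Ctrl cells (0% higher, 0.0191% lower, which is 3 genes), and 0 of 9 members did by edgeR. None of the 9 had an unadjusted p under 0.05, and DESeq2 also called 0. *Rel* came nearest, with a log2 fold change of -0.10, lower in KO cells in 4 of 4 isolations (unadjusted p = 0.072 from the edgeR quasi-likelihood test, adjusted p = 0.761). The 95% intervals over the 9 genes ran from -13.8% (*Rel*) to 11.1% (*Nfkb2*). For each gene, differences within its own interval are not excluded.

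In ligand-treated cells no member passed the same test between genotypes. KO cells with pro:BMP9 and Ctrl cells with sENG(M):BMP9 differed in 0.255% of tested genes (0.0892% higher and 0.166% lower in KO cells) and in 0 of 9 members. None had an unadjusted p under 0.05, and DESeq2 called 0 as well. The intervals ran from -10.3% (*Relb*) to 12.1% (*Rel*).

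The isolations did not move together in these comparisons. In isolation 1, 9 of 9 members were higher in KO than in Ctrl cells with ligand, and 8 of 9 in PBS. In isolation 3 it was 2 of 9 with ligand and 1 of 9 in PBS, and in isolation 4 it was 2 of 9 and 3 of 9. Each count rests on a single pair of libraries, and the share of all tested genes higher in that pair is not given here. *Relb* showed the widest spread with ligand, from 0.25 on the log2 scale in isolation 1 to -0.14 in isolation 2.

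The response to ligand did not differ detectably between KO and Ctrl cells for any member. The test of the difference of both responses called 0 of 9 members and 0% of all tested genes by edgeR, and 0 members by DESeq2, and no member had an unadjusted p under 0.05. *Rel*, which had passed in Ctrl cells alone, had a less negative response in KO cells in 4 of 4 isolations, by 0.15 on the log2 scale, which did not pass (SE 0.0762, adjusted p = 1.00, interval -0.0072 to 0.31). The difference was -0.025 for *Tnfaip3* (interval -0.16 to 0.11) and 0.020 for *Birc3* (interval -0.14 to 0.18). The test covers genotype, ligand form and excess soluble endoglin at once, since each genotype received its own ligand.

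Within isolations, many pairs of members varied together across the 16 libraries, while most pairs with *Tnfaip3* or *Nfkb1* had low or negative values. After the mean of each isolation was subtracted from log2 CPM, the median Pearson's r over the 36 pairs of members was 0.53. *Nfkb2* and *Relb*, the subunits of the non-canonical pathway, had the highest value (0.886), followed by *Nfkb2* with *Birc3* (0.843) and *Rel* with *Birc3* (0.807). *Tnfaip3* had negative values with 7 of the other 8 members, from -0.675 with *Rel*, -0.662 with *Nfkbie* and -0.652 with *Birc3* to -0.162 with *Nfkbia*, and a positive one with *Nfkb1* (0.573). Apart from that pair, *Nfkb1* ranged from -0.462 with *Rel* to 0.314 with *Nfkbia*. These values describe 16 libraries that share cells, culture and ligand treatment, and include the ligand effects above. The median r over pairs of all tested genes, centred in the same way, is not given here.

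**Figure D3:**
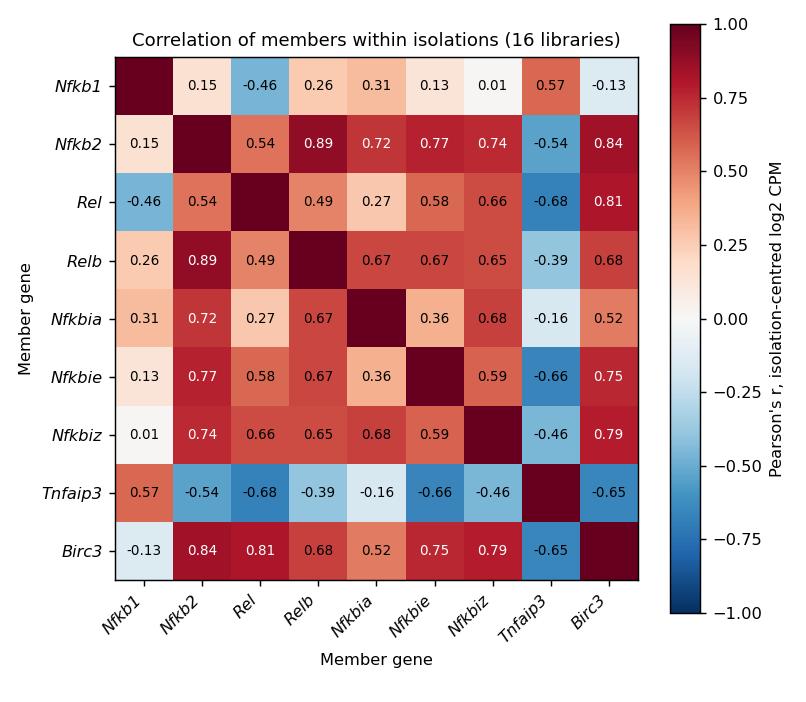
Pearson's r of isolation-centred log2 CPM between each pair of the 9 genes over 16 libraries, as a colour scale. *Nfkb2* and *Relb* reach 0.886, and *Tnfaip3* has values from -0.675 (*Rel*) to 0.573 (*Nfkb1*).

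By the same measure, the 3 genes most like *Tnfaip3* were *Gm13070* (r = 0.973), *Icam1* (0.964), which encodes a leukocyte adhesion molecule, and *Itga5* (0.958), which encodes the α5 integrin subunit. Those most like *Birc3* were *Herpud1* (0.974), *Zfp36* (0.951) and *Tent5a* (0.945). For *Rel* they were *Mid1* (0.917), *Dusp3* (0.881) and *Dubr* (0.877), for *Nfkb2* they were *Dot1l* (0.931), *Ifngr1* (0.920) and *Trabd* (0.919), and for *Relb* *Ciz1* (0.946), *Mcl1* (0.919) and *Stap2* (0.905). *Nfkbiz* was most like *Gm43109* (0.945), *Stx11* (0.945) and *Chac1* (0.944), and *Nfkbie* most like *Gm43759* (0.914), *Rasgef1a* (0.906) and *Vamp2* (0.904). The highest values were lower for *Nfkbia*, with *Npy* (0.870), *Caml* (0.861) and *Mvp* (0.840), and for *Nfkb1*, with *Aig1* (0.877) and *Zfp335* (0.874). Each gene was chosen as the highest of all tested genes, over 16 libraries.

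The other genes of the pathway, 54 in number, changed in both directions with ligand. In Ctrl cells 17 of the 54 passed, 6 higher and 11 lower, and in KO cells 13 passed, 6 higher and 7 lower. Over all tested genes 9.69% passed in Ctrl cells (5.86% higher, 3.83% lower) and 5.59% in KO cells (3.68% higher, 1.92% lower). The list was chosen with earlier results of these data known, so its counts are not an independent test against these shares. The same 6 genes were higher in both comparisons (*Cd40*, *Nfkbid*, *Tlr2*, *Traf3*, *Tnfrsf1b* and *Zc3h12a*). A further 7 were lower in both, which is 7 of the 11 in Ctrl cells and 7 of the 7 in KO cells. The share of all called genes that passed in both comparisons is not given here, and the same isolations served both. Among the 25 receptors and adaptors 4 were higher and 7 lower in Ctrl cells, and 4 and 6 in KO cells, while of 13 kinases and ubiquitin ligases 0 were higher and 3 lower in Ctrl cells, and 0 and 1 in KO cells. The median log2 fold changes of the list were -0.045 (Ctrl cells) and -0.023 (KO cells), beside -0.0051 and 0.00042 over all tested genes. Without the isolation in the model, 4 of the 54 passed in Ctrl cells and 1 in KO cells.

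*Cd40*, a receptor of the TNF receptor family that feeds the non-canonical pathway, had the largest rise. It went from 12.6 ± 4.29 CPM in Ctrl PBS to 38.9 ± 10.5 CPM with sENG(M):BMP9 (log2 fold change 1.61, SE 0.196, adjusted p = 1.12e-05), and from 12.3 ± 2.74 to 28.7 ± 5.75 CPM in KO cells (1.20, adjusted p = 0.000619). The ranges of PBS and ligand libraries did not overlap in either genotype.

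*Nfkbid*, which encodes another nuclear IκB protein, rose from 17.8 ± 5.03 to 31.6 ± 10.2 CPM in Ctrl cells (log2 fold change 0.82, adjusted p = 1.58e-05) and from 18.3 ± 6.97 to 31.1 ± 8.63 CPM in KO cells (0.78, adjusted p = 5.09e-05). *Tlr2*, a receptor for bacterial lipoproteins, had log2 fold changes of 0.65 and 0.54 (adjusted p = 3.68e-05 and 0.000565). Both were higher in 4 of 4 isolations in each genotype.

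Of the genes for TRAF adaptor proteins, which link receptors to ubiquitin ligases, *Traf1*, *Traf2* and *Traf5* fell and *Traf3* rose. The log2 fold changes of *Traf5* were -0.75 (Ctrl cells, adjusted p = 0.000725) and -0.47 (KO cells, adjusted p = 0.0416). *Traf1*, itself a known NF-κB target, had -0.67 and -0.53 (adjusted p = 0.000741 and 0.00955). In Ctrl cells *Ticam1*, the adaptor of TLR3 and TLR4, was next at -0.48 (adjusted p = 1.04e-05), and in KO cells *Traf2* at -0.37 (adjusted p = 0.00210). *Traf3*, which holds the non-canonical kinase in check, rose by 0.51 and 0.29 (adjusted p = 2.66e-06 and 0.00235).

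The kinase complex that releases NF-κB did not pass the test at the mRNA level. *Chuk*, *Ikbkb* and *Ikbkg*, which encode IKKα, IKKβ and NEMO, had log2 fold changes of -0.048, -0.083 and -0.024 in Ctrl cells (adjusted p = 0.631, 0.245 and 0.883) and 0.053, -0.052 and 0.062 in KO cells (adjusted p = 0.701, 0.670 and 0.709). *Rela*, the main activating subunit, fell in Ctrl cells from 188 ± 24.5 to 165 ± 7.96 CPM (-0.18, adjusted p = 0.0220), and had -0.12 in KO cells (adjusted p = 0.243). *Nfkbib*, which encodes IκBβ, had -0.18 and -0.17 (adjusted p = 0.218 and 0.368). Of the 12 deubiquitinases and other brakes, 1 passed in each ligand comparison, *Zc3h12a*, which encodes an RNase that degrades cytokine mRNAs. It rose by 0.20 and 0.29 on the log2 scale (adjusted p = 0.00435 and 0.000184). Over all tested genes, 9.69% passed in Ctrl cells and 5.59% in KO cells.

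Between KO and Ctrl cells, 0 of the 54 genes passed in PBS by edgeR (1 with an unadjusted p under 0.05, and 0 by DESeq2) and 0 passed with ligand (9 with an unadjusted p under 0.05, and 1 by DESeq2, *Traf3*). The difference of both responses called 0 as well (4 with an unadjusted p under 0.05, and 0 by DESeq2). Of all tested genes, 0.0191% passed by edgeR in PBS, 0.255% with ligand and 0% for the difference of both responses.

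Known NF-κB target genes of endothelium also moved both ways. Of 38 such genes 34 were tested, since *Madcam1*, *Il1b*, *Bcl2a1b* and *Cd83* had too few reads. In Ctrl cells 14 passed, 5 higher and 9 lower, where 9.69% of all tested genes passed (5.86% higher, 3.83% lower). In KO cells 10 passed, 4 higher and 6 lower, where 5.59% of all tested genes passed (3.68% higher, 1.92% lower). This list too was chosen with earlier results of these data known, so its counts are not an independent test. The medians of the list were -0.083 and -0.048 on the log2 scale. Without the isolation in the model, 1 of the 34 passed in Ctrl cells and 0 in KO cells.

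Adhesion molecules were split. *Icam1* rose from 1320 ± 145 to 1910 ± 263 CPM in Ctrl cells (log2 fold change 0.52, adjusted p = 3.60e-07) and from 1320 ± 182 to 1780 ± 254 CPM in KO cells (0.43, adjusted p = 7.03e-06). *Sele*, which encodes E-selectin, rose by 0.59 and 0.57 (adjusted p = 4.37e-07 and 1.32e-06), and *Selp*, which encodes P-selectin, by 0.16 and 0.22 (adjusted p = 0.00643 and 0.000801). *Vcam1* fell from 2290 ± 422 to 1870 ± 372 CPM in Ctrl cells (-0.30, adjusted p = 0.000118) and from 2310 ± 293 to 1900 ± 324 CPM in KO cells (-0.28, adjusted p = 0.000293).

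Of 17 chemokines and cytokines tested, 5 fell in Ctrl cells and 2 in KO cells, and 0 rose in either. Of all tested genes, 3.83% were lower and 5.86% higher in Ctrl cells, and 1.92% and 3.68% in KO cells. *Cxcl2*, a neutrophil chemokine, had -0.63 and -0.49 (adjusted p = 2.14e-05 and 0.000568), and *Csf3*, which encodes the granulocyte growth factor, had -0.40 and -0.28 (adjusted p = 2.18e-06 and 0.000207). *Cxcl5* and *Il15* fell in Ctrl cells (-0.58 and -0.51, adjusted p = 0.00436 and 0.0351) and had -0.27 and -0.32 in KO cells (adjusted p = 0.371 and 0.329), and the difference between both responses did not pass for either gene. *Ccl2*, a monocyte chemokine, had -0.21 and -0.13 (adjusted p = 0.00388 and 0.126). *Il6* was low, at 4.57 ± 3.76 CPM in Ctrl PBS, and had -0.076 and -0.47 (adjusted p = 0.949 and 0.652).

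*Ptgs2*, the inducible cyclooxygenase, had the largest rise among the targets, from 110 ± 44.1 to 352 ± 147 CPM in Ctrl cells (log2 fold change 1.64, adjusted p = 0.000653) and from 101 ± 18.5 to 238 ± 80.4 CPM in KO cells (1.20, adjusted p = 0.0147). *Cebpd*, an inflammatory transcription factor, fell by 0.58 and 0.51 on the log2 scale (adjusted p = 4.93e-06 and 4.06e-05), and *Ier3*, an early stress gene, by 0.27 and 0.41 (adjusted p = 0.0398 and 0.00352). *Gadd45b* rose in Ctrl cells (0.32, adjusted p = 0.000726) and had 0.086 in KO cells (adjusted p = 0.595).

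**Figure D4:**
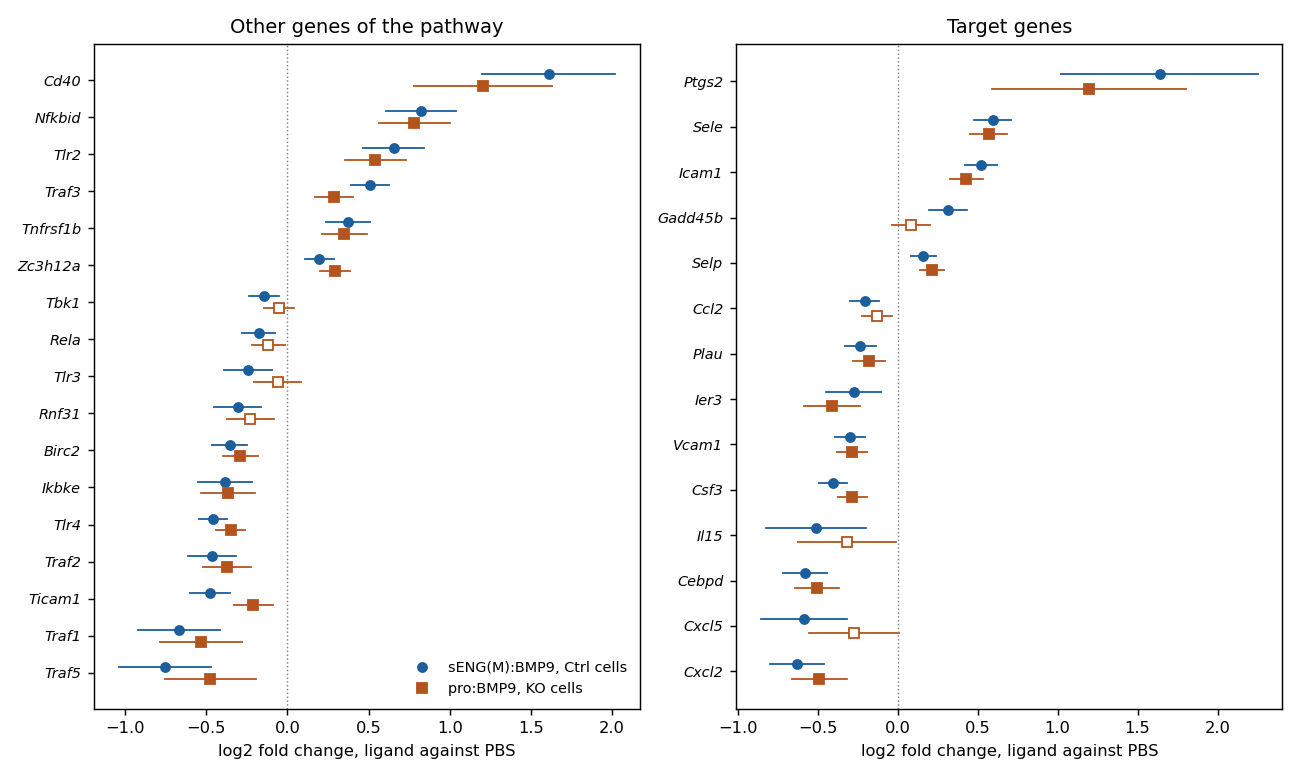
Log2 fold change with ligand against PBS for the pathway genes (left) and target genes (right) that passed in at least 1 genotype. Bars are 95% intervals, filled symbols have an adjusted p under 0.05, circles are Ctrl cells and squares KO cells. *Cd40* (1.61 and 1.20) and *Ptgs2* (1.64 and 1.20) lie farthest to the right, and *Traf5* in Ctrl cells (-0.75) farthest to the left among pathway genes.

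Between KO and Ctrl cells with ligand, 1 of 34 target genes passed, *Csf3*, at 119 ± 63.8 CPM in KO and 101 ± 55.2 CPM in Ctrl cells (log2 fold change 0.24, SE 0.0431, adjusted p = 0.0203, higher in 4 of 4 isolations). It did not pass without isolation 1, 2 or 3. In PBS, 0 of 34 passed by edgeR (5 with an unadjusted p under 0.05, and 0 by DESeq2). The difference of both responses called 0 (1 with an unadjusted p under 0.05, and 0 by DESeq2). Of all tested genes, 0.255% passed by edgeR with ligand, 0.0191% in PBS and 0% for the difference of both responses. Of the genes given for every comparison, *Icam1*, *Vcam1*, *Sele*, *Ccl2* and *Il6* had adjusted p-values of 0.538, 0.905, 0.879, 0.727 and 0.579 between KO and Ctrl cells with ligand.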

How the data were processed

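RNA of 16 MLEC libraries was sequenced, 4 in each group. Per the labels, the authors aligned reads with HISAT2 2.0.5 and counted them with featureCounts 1.5.0-p3 on GRCm39 (submitters' processing notes, which also name DESeq2 1.26.0). The deposited values are raw counts per gene, without normalisation, and the authors' table also gives gene lengths in bases. The annotation release and the strand setting of the counting are not given in the sources used here.

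The program edgeR 4.0.16 (R 4.3.3) was used for the tests. Its filterByExpr function, run by group with a minimum count of 10 and a minimum total of 15, kept 15693 of 55414 genes, and counts were normalised by TMM. A quasi-likelihood model with isolation as a block was fitted to all 16 libraries, and p-values were adjusted by Benjamini-Hochberg over all tested genes. The script was tested on simulated data. CPM values use TMM library sizes, and RPKM divides them by the deposited gene length. For log2 values within 1 isolation, a prior count of 2 was added. The floor for a count of 0 was 3 counts, and intervals are at 95%.

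Replicate numbers come from the labels and stand for isolations, and libraries with the same number deviated together (lowest r of 24 pairs 0.67, mean 0.757, against a mean of -0.251 for 72 other pairs). Within a group no pair of libraries agreed within sampling noise (chi-square per degree of freedom at least 10.9).

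The members and gene lists were chosen with earlier results of these data known. Named are the 9 members, *Eng*, *Id1*, *Smad6*, *Rela*, *Nfkbib*, *Chuk*, *Ikbkb* and *Ikbkg*, the 3 pathway genes and 5 target genes with the largest change in each direction among those called in a comparison, *Icam1*, *Vcam1*, *Sele*, *Ccl2* and *Il6*, and the 3 genes most like each member. *Traf3*, *Tnfrsf1b*, *Zc3h12a* and single cell type markers were named after their values were seen. Alternatives were no block, DESeq2 1.42.0, RLE size factors, no filter, 10 counts in every library, the 8 libraries of a comparison alone, a series of steps modelled on those of the authors (quantile normalisation, then ComBat of sva 3.50.0, then DESeq2, where taking isolation as the ComBat batch is an assumption), and each isolation left out in turn. A few values of single genes outside the 9 members are not reported here.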

Additional observations from a re-analysis of the deposited data

Results flagged for a closer look

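*Nfkb1* in Ctrl PBS measured 213.6 CPM in isolation 4, while the nearest of the other 3 libraries measured 227.8 CPM. The gap was 0.883 of the whole range of the group, above Dixon's 95% critical value for 4 libraries. Among 36 combinations of member and group this was the single one beyond that value, and chance gives about 1 in 20.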

How the results depend on the processing

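The threshold calls rest on the replicate block. With no replicate block, 0 members passed in Ctrl and 0 in KO cells with ligand, against 3 and 2 with it, and pathway genes fell to 4 and 1, targets to 1 and 0, and targets between KO and Ctrl cells with ligand to 0. Quantile normalisation, ComBat and DESeq2, with isolation assumed as the batch (the ComBat steps), gave 5 members in Ctrl (adding *Nfkbiz* and *Nfkb2*) and 4 in KO cells (adding *Nfkbie* and *Nfkb2*), and the 8 libraries of a comparison alone gave 4 in KO cells. Leaving out isolations gave 1 to 3 members in Ctrl and 1 to 2 in KO cells. Between KO and Ctrl cells with ligand, pathway genes (0 as reported) numbered 1 by DESeq2, 4 without the filter, 1 in 8 libraries and 5 by the ComBat steps, and 0 to 1 with an isolation left out. Targets (1 as reported) numbered 2, 7, 2 and 3 in the same order and 0 to 3 with an isolation left out. In PBS targets numbered 3 without the filter, 1 by the ComBat steps and 0 to 1 with an isolation left out, and without the filter 1 differed in response. Over all genes between KO and Ctrl cells with ligand, DESeq2 called 141, no filter 517, the 8 libraries 55 and the ComBat steps 538. The reported count was 40, and leaving out an isolation gave 6 to 175. In PBS, no filter called 204 and the ComBat steps 175, against 3 as reported, with 1 to 69 when an isolation was left out. Without the filter 52 genes differed in response, against 0 as reported. With ligand the ComBat steps called 2227 genes in Ctrl and 1407 in KO cells, against 1521 and 878. The causes were not tested.

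Of 99 recomputed member values per comparison, 91 in Ctrl and 89 in KO cells with ligand kept direction and call. *Tnfaip3* passed in 10 of 11 alternatives in both. In the comparisons without a call on the gene, signs turned as follows, on the log2 scale. With the ComBat steps, *Nfkb1* with ligand in KO cells became -0.0043, *Nfkb2* between KO and Ctrl cells with ligand -0.011, and *Tnfaip3* between them in PBS -0.0105. Without the replicate block, the difference of both responses for *Nfkbia* became -0.0032, and values in PBS became -0.0031 for *Nfkbie*, 0.0059 for *Nfkbiz* and 0.0014 for *Relb*. The same *Nfkbia* difference was -0.0018 with DESeq2 and -0.0017 with RLE factors, and *Nfkbiz* in PBS was 0.0024 with DESeq2, 0.0022 with RLE factors and 0.00098 with no filter. With an isolation left out, log2 values between KO and Ctrl cells in PBS spanned 0 for *Birc3* -0.094 to 0.012, *Nfkb1* -0.024 to 0.034, *Nfkb2* -0.00903 to 0.078, *Nfkbie* -0.024 to 0.029, *Nfkbiz* -0.042 to 0.046, *Relb* -0.028 to 0.023 and *Tnfaip3* -0.064 to 0.051. With an isolation left out, log2 values between KO and Ctrl cells with ligand spanned 0 for *Birc3* -0.0499 to 0.028, *Nfkb2* -0.066 to 0.033, *Nfkbia* -0.019 to 0.063, *Nfkbie* -0.11 to 0.017, *Relb* -0.11 to 0.021 and *Tnfaip3* -0.0598 to 0.012. With an isolation left out, log2 values for the difference of both responses spanned 0 for *Birc3* -0.031 to 0.044, *Nfkbia* -0.031 to 0.037, *Nfkbie* -0.10 to 0.041, *Relb* -0.078 to 0.045 and *Tnfaip3* -0.062 to 0.0046.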
